A study of Arabidopsis thaliana with 6 samples.

Results

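The SABATH family of Arabidopsis thaliana methyltransferases was described in leaves sprayed with salicylic acid (SA), a phenolic defence hormone. The 10 loci described were BSMT1 (AT3G11480), JMT (AT1G19640), NAMT1 (AT5G04370), FAMT (AT3G44860), AT3G44870, AT4G36470, AT5G38020, AT5G37990, AT5G66430 and AT2G14060, chosen as named loci of the family and taken through the gene annotation of the array's probe sets. Of these 10 loci, 8 had a probe set of their own among the 13286 genes measured, meaning matched to a probe set through that annotation. The annotation lists 14016 of 22746 probe sets without controls, so a gene not measured here may still be on the array. FAMT and AT3G44870 shared 1 probe set, so their transcripts cannot be told apart here. Plants were 3 to 4 weeks old, and the labels used here name no ecotype or genotype. Mock leaves received 0.01% Silwet, a wetting agent, and the SA group received 1 mM SA in the same 0.01% Silwet. Leaves were taken 2 hours after spraying from 3 biological replicates of each treatment, each on 1 Affymetrix ATH1 array. The comparison asks which transcripts differ between SA-sprayed and mock-sprayed leaves at that time.

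SABATH enzymes transfer a methyl group from S-adenosylmethionine to a small acid or to a ring nitrogen, and in plants most known members make methyl esters of hormones and other metabolites. A methyl ester is less polar than its acid and can be volatile; in leaves, methyl salicylate and methyl jasmonate are transport or airborne forms of the hormones, and esterases turn them back into the free acids. BSMT1 makes methyl salicylate and methyl benzoate, JMT makes methyl jasmonate, NAMT1 methylates nicotinic acid, and FAMT methylates farnesoic acid. Both BSMT1 and JMT are known to respond to jasmonate in leaves. No role is given here for members named only by locus.

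All values are log2 signals made by the authors with RMA, which span 3.01 to 14.66 over the table. A difference of 1 is 2-fold. RMA gives no call of presence, and 4 of the 8 members with their own probe set had a mean signal of at least 6 over the 6 arrays: BSMT1, JMT, AT4G36470 and AT5G38020. Median log2 signals of the arrays lay between 7.41 and 7.51, and correlations between arrays between 0.959 and 0.986. Mock and SA arrays that carry 1 number departed from their group means in similar ways, and the dap spike-in AFFX-DapX-3_at lay at 11.52 and 11.42 on the arrays numbered 1 against 8.27 to 8.44 on the other 4. As a check of the labelled tissue, the photosynthesis genes RCA, PRK and LHCB4.2 had signals between 12.65 and 14.11 on every array.

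BSMT1, the methyltransferase that acts on SA itself, gave the widest spread of the 8 members. Its log2 signals were 7.27, 7.10 and 6.41 in mock replicates 1, 2 and 3, and 5.53, 7.42 and 5.33 in SA replicates 1, 2 and 3. SA replicates 1 and 3 lay below every mock array, while SA replicate 2 lay above every mock array, so the groups overlapped. The means were 6.93 ± 0.46 (SD, n = 3) in mock and 6.09 ± 1.15 (SD, n = 3) in SA-treated leaves. The change of -0.83 ± 0.58 (standard error) did not pass the test (limma adjusted p = 0.657), with a 95% interval of -2.23 to 0.56. In linear terms that interval runs from 4.68-fold lower to 1.47-fold higher after SA. Fitted with the replicate number as a block, BSMT1 had an adjusted p of 0.265 by limma.

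The lower BSMT1 mean after SA rested on SA replicates 1 and 3, and SA replicate 2 went against it. Without SA replicate 2 the change was -1.49, with an unadjusted limma p of 0.00263 and an adjusted p of 0.119, so it did not pass over all genes. SA replicate 2 was singled out by its value, which by itself lowers that p. Array weights gave -0.49 (limma adjusted p = 0.745). Without SA replicate 1 or 3 the change was -0.55 or -0.45, and without mock replicates 1, 2 and 3 it was -0.66, -0.75 and -1.09. Differences between arrays of the same number were -1.74, 0.32 and -1.08 for replicates 1, 2 and 3. Arrays numbered 1, which the dap spike-in sets apart, thus gave -1.74, and those numbered 2 and 3 gave -0.38 on average. Only 1.88% of the 13286 genes had an SD over the 6 arrays as large as that of BSMT1, 0.91.

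JMT, which methylates jasmonic acid, had its highest signal on the same SA array. Its log2 signals were 7.46, 7.26 and 7.20 in mock replicates 1, 2 and 3 and 7.26, 7.99 and 7.50 in the SA replicates. SA replicates 2 and 3 lay above every mock array and SA replicate 1 within the mock range. The change of 0.28 ± 0.20 (standard error) did not pass (limma adjusted p = 0.677), and its 95% interval of -0.20 to 0.76 lay within 2-fold in either direction. Without SA replicate 2 the change was 0.074, and without SA replicate 1 it was 0.44, with an unadjusted limma p of 0.058 and an adjusted p of 0.382. Array weights gave 0.44 as well. The difference between the log2 signals of BSMT1 and JMT averaged -0.38 on the mock arrays and -1.49 on the SA arrays. That shift was -1.11, and within replicates 1, 2 and 3 it was -1.54, -0.42 and -1.37, below 0 in 3 of 3 pairs. This comparison was chosen after the values were seen and is given as a description: a two-sided exact permutation test of 3 arrays against 3 cannot give a p below 0.1 and gave 0.2, so it cannot settle whether the responses differ.

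**Figure D1:**
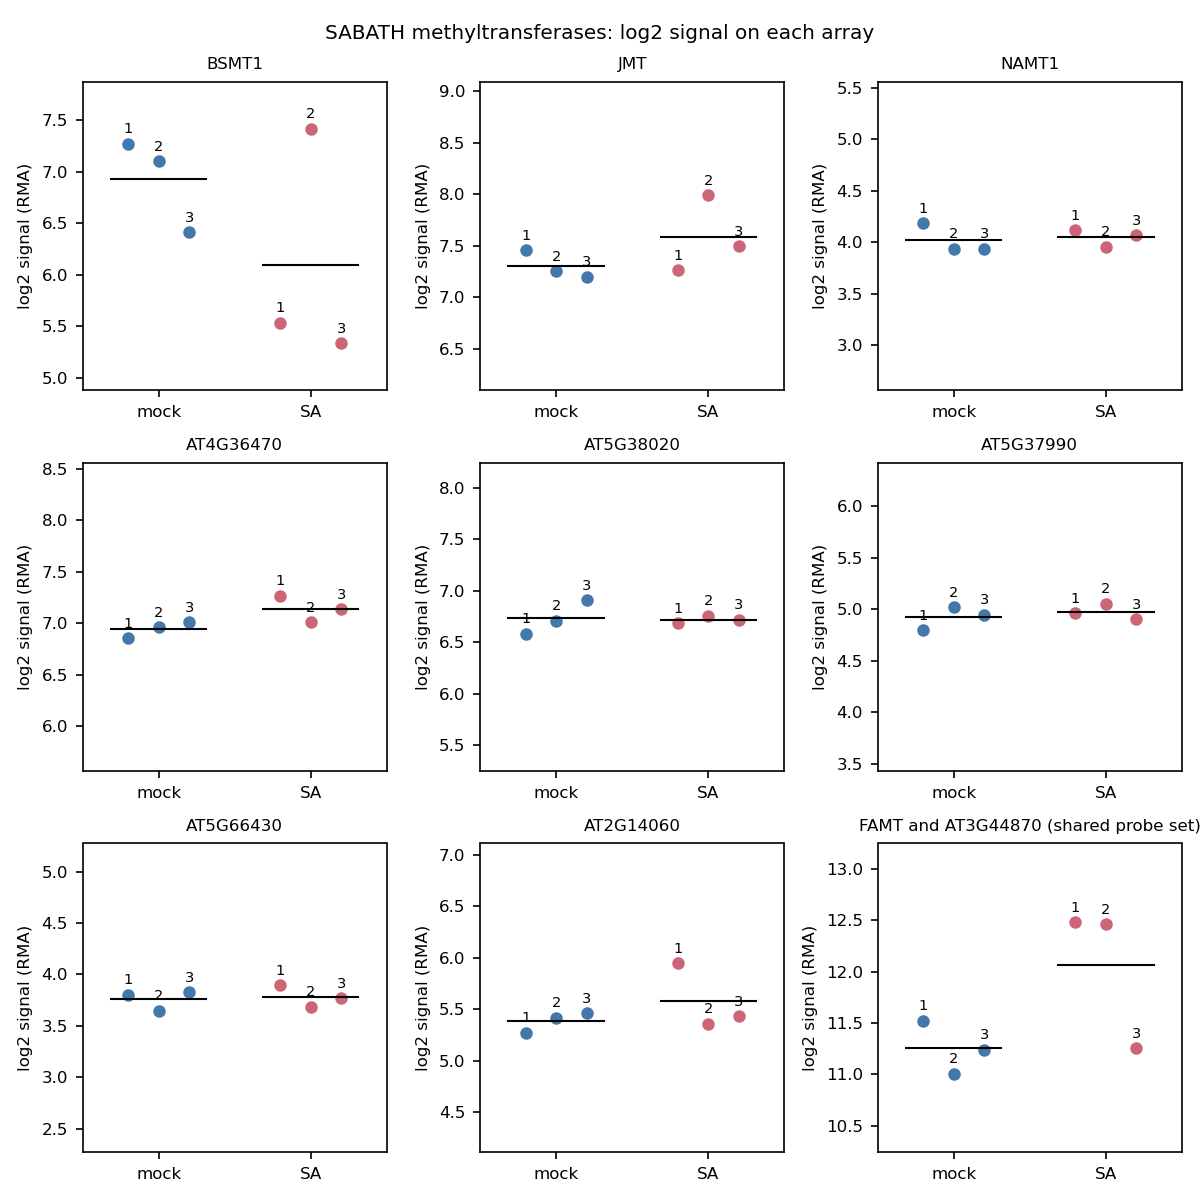
Log2 signal (vertical axis) of each SABATH member by treatment; each point is 1 array with its replicate number, the line is the group mean, and the panels share 1 vertical span. BSMT1 lies at 5.53 and 5.33 on SA replicates 1 and 3 and at 7.42 on SA replicate 2, while most other members stay close to their mock values.

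The probe set 246340_s_at, annotated to both FAMT and AT3G44870, had the largest positive change among the probe sets of the members. FAMT makes methyl farnesoate, and AT3G44870 is its immediate neighbour, with 0 protein-coding genes between them in the RefSeq annotation. Log2 signals were 11.52, 11.01 and 11.24 in mock replicates 1, 2 and 3 and 12.48, 12.46 and 11.25 in the SA replicates. SA replicates 1 and 2 stood well above all mock arrays, and SA replicate 3 fell among them, so the groups overlapped. In a fit over all 22746 probe sets without controls the change was 0.81 ± 0.35 (standard error), with a 95% interval of -0.05 to 1.67 (limma adjusted p = 0.380). By limma with the replicate block the unadjusted p was 0.0303 and the adjusted p was 0.144. Without SA replicate 3 the change was 1.22 (limma adjusted p = 0.104). SA replicate 3 was singled out by its value, which by itself lowers that p. Without SA replicates 1 and 2 the change was 0.60 and 0.61 (limma adjusted p = 0.566 and 0.658). The SA array that stood apart from the other SA arrays was thus replicate 2 for BSMT1 and replicate 3 for this probe set.

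The remaining 6 members stayed near their mock level. AT4G36470 was the most even of them in direction, with log2 signals of 6.85, 6.96 and 7.01 in mock and 7.27, 7.01 and 7.14 in SA replicates 1, 2 and 3. Every SA array was above the mock array of its own number, as in the 45.1% of all genes whose 3 differences share a sign. Its groups overlapped by 0.00028 log2 units, between SA replicate 2 and mock replicate 3. The change was 0.20 ± 0.11 (standard error), with a 95% interval of -0.06 to 0.45 (limma adjusted p = 0.509).

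AT2G14060 had log2 signals of 5.27, 5.42 and 5.46 in mock and 5.95, 5.36 and 5.44 in SA replicates 1, 2 and 3. Only SA replicate 1 lay outside the mock range, and without it the change was 0.013 against 0.20 over all arrays (limma adjusted p = 0.767). NAMT1, which acts on nicotinic acid in the turnover of nicotinamide cofactors, had means of 4.02 ± 0.14 (SD, n = 3) in mock and 4.05 ± 0.08 (SD, n = 3) in SA-treated leaves. AT5G38020, AT5G37990 and AT5G66430 had changes of -0.01, 0.05 and 0.03. These 4 genes had limma adjusted p-values between 0.934 and 0.993, and their 95% intervals lay between -0.28 and 0.29. AT2G14060, NAMT1, AT5G37990 and AT5G66430 were below a mean signal of 6, and at low signals RMA values can understate a change in transcript.

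Of the 8 members, limma called 0 at an adjusted p under 0.05, with 0 at an unadjusted p under 0.05 and 0 called with the replicate block. The background was 1.63% of all 13286 genes called without the block and 9.91% with it, and 13.8% had an unadjusted p under 0.05. None of the 8 had groups that did not overlap, against 18.0% of all genes. Against the 1.63%, 0 of 8 is near the background and says little about the family. Changes were above 0 in 6 members and below 0 in 2 (25%), against 52.0% of all genes below 0. The median was 0.04 against -0.01 over all genes. Among the 6, NAMT1, AT5G37990 and AT5G66430 turned sign when some single arrays were left out, so the split shows no firm direction. For 7 of the 8 the 95% interval of the change, taken gene by gene, lay within 2-fold in either direction, and BSMT1 was the exception. Among the 7, NAMT1, AT5G37990, AT5G66430 and AT2G14060 had a mean signal below 6, where RMA values can understate a change.

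**Figure D2:**
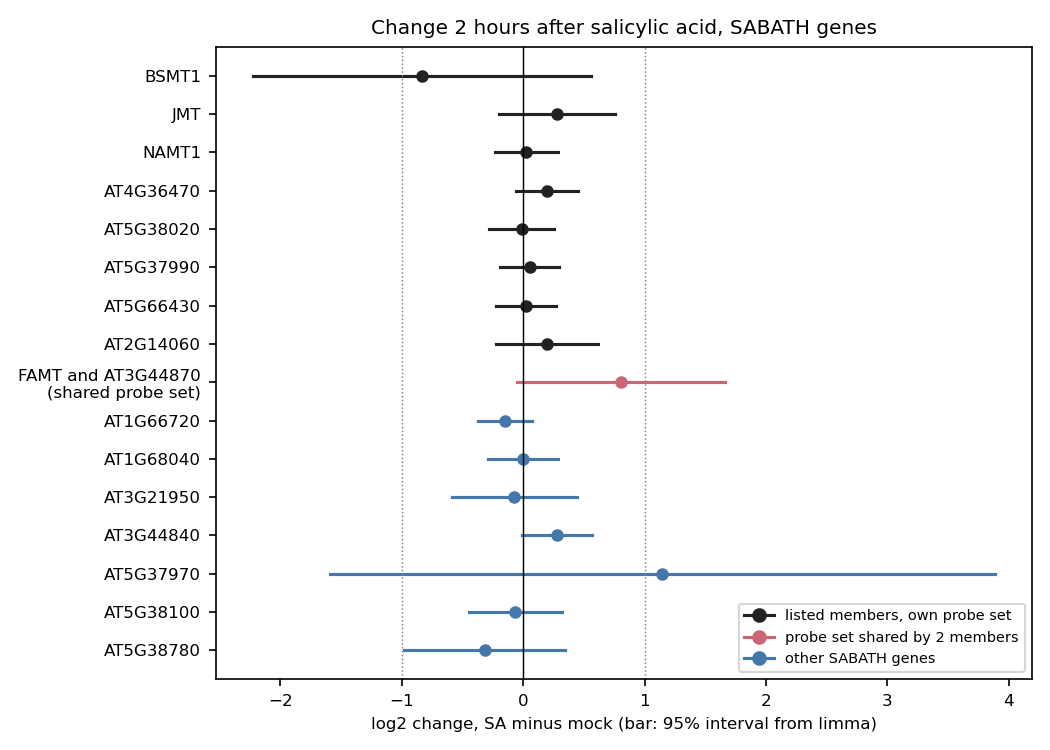
Log2 change between SA and mock (horizontal axis) with the 95% interval from limma for the 8 members, the probe set shared by 2 members and 7 other SABATH genes; dotted lines mark 2-fold. Every interval, fitted without a block, reaches across 0, and the widest belong to AT5G37970, BSMT1 and the shared probe set.

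Beyond the 10 loci, 7 of 13 other listed SABATH genes had a matched probe set, and limma called 0 of these with or without the block (0 at an unadjusted p under 0.05 without it). Their median change was -0.06. AT3G44840, with 1 protein-coding gene between it and FAMT, had a change of 0.28 ± 0.12 (limma adjusted p = 0.381). Its log2 signals were 4.62, 4.49 and 4.37 in mock and 4.82, 4.90 and 4.61 in SA replicates 1, 2 and 3. With the replicate block its 95% interval was 0.06 to 0.50, with an unadjusted limma p of 0.0224 and an adjusted p of 0.125. Its mean over the 6 arrays, 4.63, was below 6. AT5G38780 had a change of -0.32, which was -0.62 without SA replicate 1 (limma adjusted p = 0.147) and -0.083 without SA replicate 3 (limma adjusted p = 0.978). AT1G66720, AT3G21950, AT5G38100 and AT1G68040 had changes between -0.15 and 0.00. The genes for the auxin and gibberellin methyltransferases IAMT1, GAMT1 and GAMT2 were not analysed here.

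AT5G37970 stood apart on a single array. It belongs to a group of SABATH loci on chromosome 5, with 1 protein-coding gene between it and AT5G37990 and 4 between it and AT5G38020. Its log2 signal was 7.91 on SA replicate 2 and between 3.65 and 4.09 on the other 5 arrays, which include SA replicates 1 and 3 at 3.65 and 3.70. SA replicate 2 was thus 14.2-fold above the next array, a gap of 3.83 log2 units. The other 5 arrays lay near the lowest value of the table, 3.01, so this fold is set against very low signals. No other of the 13286 genes had so wide a gap between its highest and second highest array; the next widest, on any array, was 2.83. Its change of 1.15 ± 1.13 (standard error) did not pass (limma adjusted p = 0.808), and without SA replicate 2 it was -0.27. The neighbouring members did not share the pattern, with log2 signals on SA replicate 2 of 5.05 for AT5G37990 and 6.76 for AT5G38020 against mock means of 4.92 and 6.73.

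SA replicate 2 held the highest value for 5 of the 15 SABATH genes measured, BSMT1, JMT, AT5G37990, AT3G44840 and AT5G37970, and for 11.2% of all genes. SA replicate 1 and mock replicate 3 each held the highest value for 4 of the 15, and SA replicate 2 the lowest for 3. The lead of SA replicate 2 was only 0.034 log2 units for AT5G37990 and 0.082 for AT3G44840. SA replicate 2 was the highest array by at least 1 log2 unit for 6 genes in all, against 45 for SA replicate 3. A control outside the comparison, AFFX-r2-At-U12639_at, read 10.29 on SA replicate 2 and 8.44 on mock replicate 2, with 5.45 to 5.65 on the other 4 arrays. Its part in these values was not tested.

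**Figure D3:**
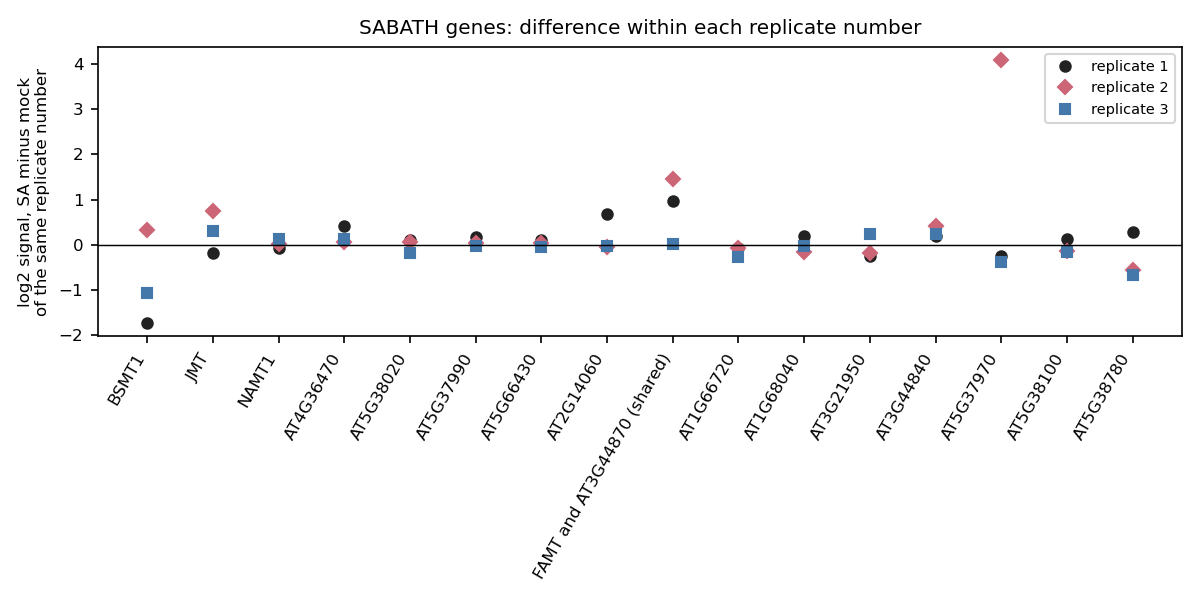
Difference in log2 signal between the SA and mock arrays of the same replicate number (vertical axis) for each SABATH gene (horizontal axis). Replicate 2 lies above replicates 1 and 3 for BSMT1 (0.32 against -1.74 and -1.08), JMT (0.74 against -0.20 and 0.30) and AT5G37970 (4.09 against -0.26 and -0.39).

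**Figure D4:**
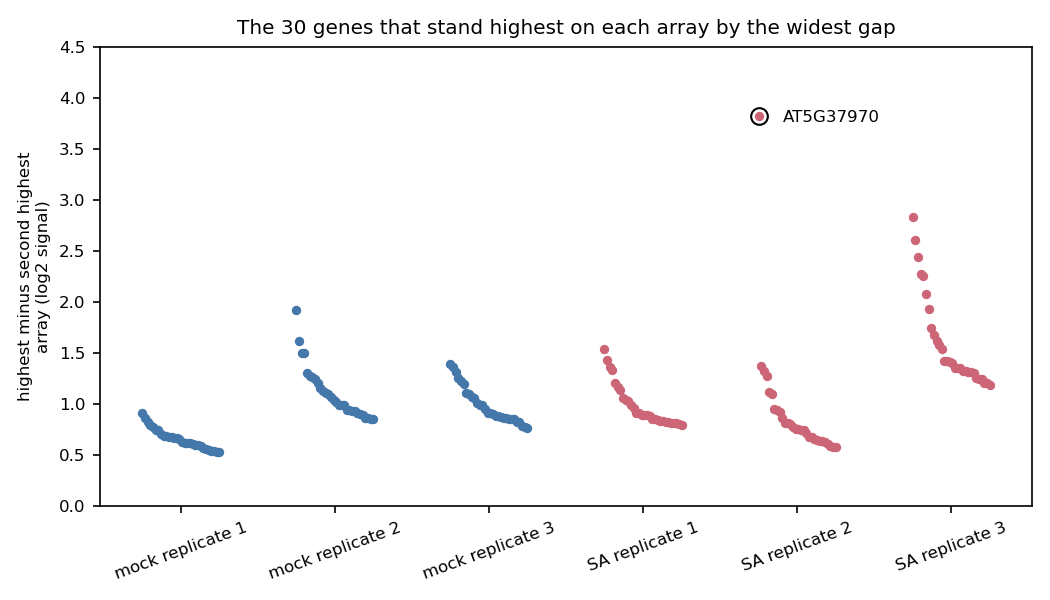
For each array, the 30 genes that were highest on it by the widest gap to the second highest array, with the gap in log2 units on the vertical axis. AT5G37970 on SA replicate 2 is circled at 3.83; the widest gap of any other gene is 2.83, on SA replicate 3.

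Other genes that handle SA or its methyl ester gave a mixed picture. Of 19 listed genes of SA synthesis and modification, 5 were matched to a probe set. Of these, limma called 1 as higher and 0 as lower, with 3 at an unadjusted p under 0.05. The gene that rose was UGT76B1, which glucosylates SA and isoleucic acid, by 6.43 ± 0.35 log2 units (limma adjusted p = 0.00625). It read 12.49, 12.51 and 12.93 on SA replicates 1, 2 and 3. Why BSMT1 was high on SA replicate 2 was not tested. UGT71C3, a glucosyltransferase that acts on methyl salicylate, had log2 signals of 5.65, 5.27 and 5.65 in mock and 4.91, 5.20 and 5.20 in SA replicates 1, 2 and 3. Every SA array of UGT71C3 was below every mock array. Groups did not overlap, in either direction, in 18.0% of all genes. The change of UGT71C3, -0.42 ± 0.15, did not pass over all genes (limma adjusted p = 0.281, and 0.147 with the block). The mean of UGT71C3 over the 6 arrays, 5.31, was below 6.

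UGT89A2 (AT5G03490), which conjugates dihydroxybenzoic acids formed from SA, had log2 signals of 7.99, 8.59 and 8.19 in mock and 8.96, 9.60 and 9.25 in SA replicates 1, 2 and 3. The groups did not overlap, as in 18.0% of all genes, and the change of 1.02 ± 0.22 did not pass without a block (limma adjusted p = 0.0903). It passed with the replicate block and with a block for the arrays numbered 1 (limma adjusted p = 0.00497 and 0.0230). UGT74F1, a glucosyltransferase of SA, and WES1, which conjugates amino acids to auxin and other acids, had changes of 0.13 and 0.14. OPCL1, a ligase of jasmonate synthesis, was the only 1 of 17 listed jasmonate genes matched through the annotation used. It had a change of 0.07 (limma adjusted p = 0.985). None of 18 listed methylesterases, which reverse the reaction of BSMT1 and JMT, and none of 12 listed genes of the S-adenosylmethionine cycle, which supplies the methyl group, was analysed here.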

How the data were processed

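The deposited table holds log2 signals of 22810 probe sets on 6 arrays, made by the authors with RMA, per the submitters' processing notes; its version is not given in the sources used here. Quantile normalization in RMA removes most shifts shared by all transcripts. The 64 control probe sets were left out. Probe sets annotated to 1 gene were matched by gene identifier to RefSeq loci (TAIR10.1), and the one with the highest mean was kept per locus, giving 13286 genes. SA and mock were compared with limma 3.58.1 in R 4.3.3 (lmFit, eBayes, treatment as the only term), with Benjamini-Hochberg adjustment over all genes and a threshold of 0.05; the shared probe set was read from a fit over all 22746 probe sets. The scripts were tested on simulated data.

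Deviations of same-numbered arrays from their group means correlated by 0.76, 0.48 and 0.56 across genes, above the limit of 0.1. Same-numbered arrays were therefore also compared as pairs, by their differences and in a fit with the replicate block. The main fit and the permutation test did not use the pairs. Standard errors, intervals and p-values are thus unpaired unless a block is named. The meaning of a number is not given in the labels. The number of arrays limits the precision. The members and gene lists were chosen with earlier results of these data known. Genes were named as members, as measured genes of the lists, or as the 3 genes correlating best over the 6 arrays with BSMT1 or with JMT among genes with an SD of at least 0.3. Alternatives were a replicate block, a block for the arrays numbered 1, median centring, 32 linear units added, a mean signal of at least 6, array weights, an intensity trend, all probe sets, and leaving out each array.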

Additional observations from a re-analysis of the deposited data

Results flagged for a closer look

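A control outside the comparison, AFFX-r2-At-U12639_at, gave a log2 signal of 10.29 on SA replicate 2. The highest mock value was 8.44, on mock replicate 2, and the other 4 arrays read 5.45 to 5.65.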

How the results depend on the processing

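The count of members called stayed at 0 under all 14 alternatives. Over all genes limma called 217; it called 1316 with the replicate block, 684 with a block for the arrays numbered 1, 479 with array weights, 334 over all probe sets, 143 with an intensity trend, 135 with 32 linear units added, and 5 to 57 when 1 array was left out. Of the other listed genes, 1 was called, and 2 with the replicate block or with the block for the arrays numbered 1, UGT89A2 being added; the block changed no other call among the genes named. Of 108 values of member changes under the alternatives, 98 kept their direction and side of the threshold and 10 turned sign, all of them in AT5G38020, NAMT1, AT5G37990 and AT5G66430, whose changes lay between -0.01 and 0.05. The blocks, the intensity trend, the signal filter and the fit over all probe sets left each member's change itself unaltered. Among the 98, values from those settings therefore bear only on the side of the threshold. AT5G38020 turned to 0.041 with median centring and 0.0091 with array weights, and ran from -0.088 to 0.074 when 1 array was left out. On leaving out 1 array, NAMT1 ran from -0.014 to 0.11, AT5G37990 from -0.0079 to 0.10 and AT5G66430 from -0.030 to 0.075. Among other genes, AT1G68040 turned to 0.052 with median centring and OPCL1 to -0.093 with array weights. With 1 array left out, the ranges were -0.057 to 0.093 for AT1G68040, -0.21 to 0.13 for AT3G21950, -0.27 to 1.86 for AT5G37970, -0.15 to 0.064 for AT5G38100, -0.31 to 0.45 for WES1 and -0.23 to 0.27 for OPCL1. The cause was not tested. Signal near the floor of the array limits what can be seen in the 4 members with a mean below 6.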

Other observations

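Over the 6 arrays, the gene whose log2 signals ran most like those of BSMT1 was UGT78D1, a rhamnosyltransferase of flavonol glycosides (Pearson r = 0.974 among 3696 genes compared, a description over 6 arrays). UGT78D1 read 8.80, 8.86 and 8.26 in mock replicates 1, 2 and 3 and 7.24, 8.66 and 7.15 in the SA replicates. As for BSMT1, SA replicates 1 and 3 were the 2 lowest arrays, but SA replicate 2 lay within the mock range for UGT78D1 and above it for BSMT1; the change of -0.96 did not pass (limma adjusted p = 0.401). The next were iqd33 (AT5G35670) and AT5G37790, at r = 0.967 and 0.951, with changes of -0.26 and -0.29.

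The genes most like JMT were TBL36 (AT3G54260), AT5G37970 and bZIP58 (AT1G13600), with r of 0.921, 0.897 and 0.882. Each had its highest value on SA replicate 2, at 9.19 for TBL36, 7.91 for AT5G37970 and 4.65 for bZIP58, so these likenesses rest largely on that array.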
